A study of Mus musculus with 6 samples.

Results

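Aminoacyl-tRNA synthetases are the enzymes that attach each amino acid to its own transfer RNA. Their transcripts were examined in bone marrow mesenchymal stem cells of the mouse that carry or lack Grx2. A gene was taken as a synthetase when its symbol matched a naming pattern for the family, and 38 of the 22984 genes in the deposited table did. Of these, 21 were counted as cytosolic and 17, whose symbols end in ars2, as mitochondrial. The pattern used names only and no measured value. The table writes most cytosolic genes by their older symbols (Aars for Aars1, Eprs for Eprs1, Tarsl2 for Tars3).

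Wild type cells (Grx2+/+) and knockout cells (Grx2-/-) gave 3 libraries each, and the labels name no treatment. Grx2, gene symbol Glrx2, encodes glutaredoxin 2, which uses glutathione to reduce protein disulfides, largely in mitochondria. The cells are named O-BMSCs, a prefix left unexplained. The sources used here give neither the age of the mice nor the extent of the deletion. Whether replicates come from different mice or cultures is also not stated, and the p-values reflect spread among 6 libraries that may be technical.

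Animal cells keep separate synthetases for the cytosol and for mitochondria, nearly all of them encoded by different nuclear genes. Gars and Kars are exceptions, each giving both a cytosolic and a mitochondrial enzyme, and they stand with the cytosolic set here because of their symbols. Several cytosolic synthetases are held together with scaffold proteins in the multi-synthetase complex. Many cytosolic synthetase genes are known targets of ATF4, the transcription factor of the integrated stress response, which acts through a composite C/EBP-ATF element, whereas mitochondrial synthetases supply the few proteins made inside the organelle.

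The promoters that hold the core of the ATF4 element are shown first. RefSeq windows of GRCm38.p6, from 250 bases before to 50 bases after each annotated start, were matched by symbol for 28 of the 38 synthetases. Members with no window included Nars, Cars, Lars, Rars, Wars, Vars, Hars, Hars2 and Pars2. The motif searched was TGATGNAA on both strands. It occurred in 5 windows, those of Aars, Gars, Tars, Iars and Yars, and capitals mark it below. Up to 120 bases before the start are given, or 30 bases around a match that lies at the start of the transcript.
Aars promoter (chr8:111033722-111033841, plus strand): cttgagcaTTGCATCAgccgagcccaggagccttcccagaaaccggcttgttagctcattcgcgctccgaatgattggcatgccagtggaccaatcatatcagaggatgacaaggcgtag
Aars start (chr8:111033840-111033869, plus strand): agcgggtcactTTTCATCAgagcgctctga
Gars promoter (chr6:55037881-55038000, plus strand): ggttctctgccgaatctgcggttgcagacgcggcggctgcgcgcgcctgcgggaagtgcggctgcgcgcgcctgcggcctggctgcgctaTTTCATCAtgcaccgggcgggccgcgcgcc
Tars promoter (chr15:11399659-11399778, minus strand): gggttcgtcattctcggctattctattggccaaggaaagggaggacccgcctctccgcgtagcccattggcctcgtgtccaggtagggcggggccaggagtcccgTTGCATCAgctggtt
Iars start (chr13:49682126-49682155, plus strand): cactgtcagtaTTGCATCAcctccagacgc
Yars start (chr4:129189895-129189924, plus strand): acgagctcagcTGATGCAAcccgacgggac

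All 5 genes with a match were cytosolic members that were lower in the knockout. Of the cytosolic synthetases with a window, 5 of 9 that fell held the motif (55.6%) and 0 of 5 that did not fall held it. None of the 14 mitochondrial synthetases with a window held it. Among all 27025 genes with a window 4.51% held it, and among the tested genes 2.63%. A fixed list of ATF4 and its pathway genes held it in 6 of 20 windows (30%). Of 235 tested genes with a match, 26.0% were lower and 44.7% higher in the knockout, close to the 24.6% and 42.7% of all tested genes. Nars, Cars, Lars, Rars and Wars also fell but had no window, so they are outside these counts. A match is a run of letters in this window and was not tested for binding. Whether the motif bears on the falls was not tested.

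The depth was 40797879 to 41794919 reads per library, and each synthetase had between 162 reads (Pars2) and 22456 reads (Aars). Values are FPKM, reads per kilobase of gene scaled by depth, so levels of different genes compare only roughly and depend on the gene lengths used. Glrx2 was at 3.57, 3.74 and 3.54 FPKM in the wild type. The knockout libraries held 1, 0 and 0 reads of it. All 13 fixed marrow stromal markers passed the filter, among them Col1a1 and Cxcl12. B and T cell markers summed to at most 1.41 FPKM and erythroid markers to at most 0.379 FPKM in any library. Macrophage markers, however, summed to 1603 to 3518 FPKM over the libraries, and neutrophil markers to 938 to 2720 FPKM in wild type. By a chi-square comparison of reads, replicate 2 of the wild type and replicate 1 of the knockout were the most distant from the others of their genotype, so counts are also given without both.

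Levels of the family spanned a wide range. Nars, the asparagine enzyme, and Gars, the glycine enzyme, were the most abundant, with means over the 6 libraries of 171 and 156 FPKM. Together they made up 29.2% of the summed cytosolic FPKM in wild type and 24.6% in the knockout. The lowest cytosolic member was Tarsl2, a second threonine enzyme, at 3.45 FPKM. Mitochondrial members were lower as a set, from 20.1 FPKM for Lars2, the leucine enzyme, down to 0.625 FPKM for Nars2. The ranges overlapped, with Lars2 above the cytosolic Vars (18.7 FPKM), Farsb (13.3 FPKM) and Tarsl2. FPKM divides by the length of the gene model, which worked back to between 1587 bases (Yars2) and 15488 bases (Nars2), so a long model lowers a gene's level.

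**Figure D1:**
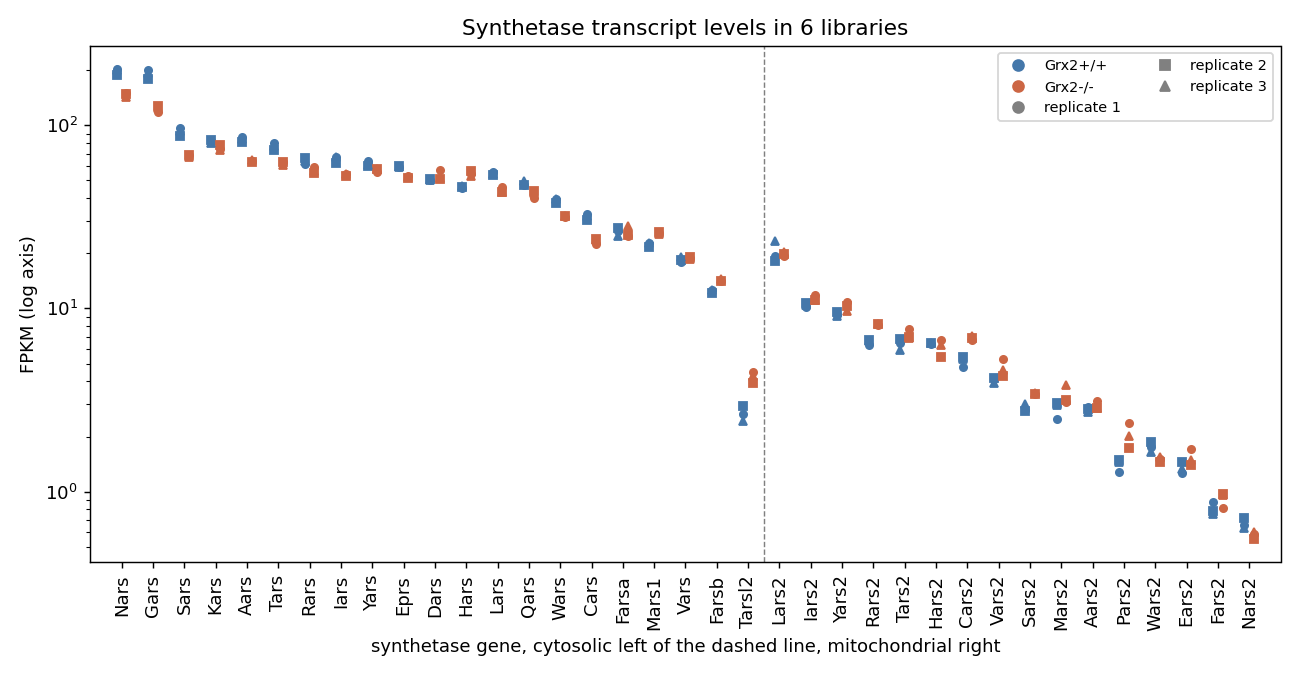
FPKM (log axis) of the synthetases reported, in each of the 6 libraries, with wild type in blue, knockout in red and a marker shape per replicate. From left to right, cytosolic genes run from Nars to Tarsl2 and, past the dashed line, mitochondrial genes from Lars2 to Nars2.

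The cytosolic set fell in the knockout and the mitochondrial set did not. Changes were tested by limma on log2(FPKM + 1), two-sided, with Benjamini-Hochberg adjustment over 11083 genes and a threshold of 0.05. "Rose" and "fell" below mean past that threshold in knockout against wild type. Of 21 cytosolic synthetases, 14 fell (66.7%), 4 rose (19%) and 3 did not pass. Of all tested genes 67.4% changed, 24.6% lower and 42.7% higher. The median log2 fold change of the cytosolic set was -0.18, against 0.085 for all tested genes. Of 15 tested mitochondrial synthetases, 6 rose (40%), 0 fell and 9 did not pass. The share that rose is near that of all tested genes, and their median was 0.15. No test compared the sets with each other or with other genes. In bulk RNA, fewer cells of a kind and less RNA per cell cannot be told apart.

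These counts depended in part on scaling. With median-of-ratios scaling 33.4% of all tested genes were higher and 33.1% lower, and 14 cytosolic members fell and 2 rose, while 3 mitochondrial members rose and 1 fell. Without wild type replicate 2 and knockout replicate 1 the counts were 14 lower and 4 higher for the cytosolic set, and 0 lower and 6 higher for the mitochondrial set.

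The summed cytosolic FPKM was 1351, 1286 and 1332 in wild type replicates 1 to 3 and 1099, 1102 and 1088 in knockout replicates 1 to 3. Every knockout library lay below every wild type library, and the knockout mean was 0.828 of the wild type mean. Without Nars and Gars that ratio was 0.882. The summed mitochondrial FPKM was 85.3, 87.2 and 90.2 in wild type and 98.3, 93.8 and 96.2 in knockout, a ratio of 1.1. Beside these sums, the median ratio of knockout to wild type mean over all tested genes was 1.07.

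**Figure D2:**
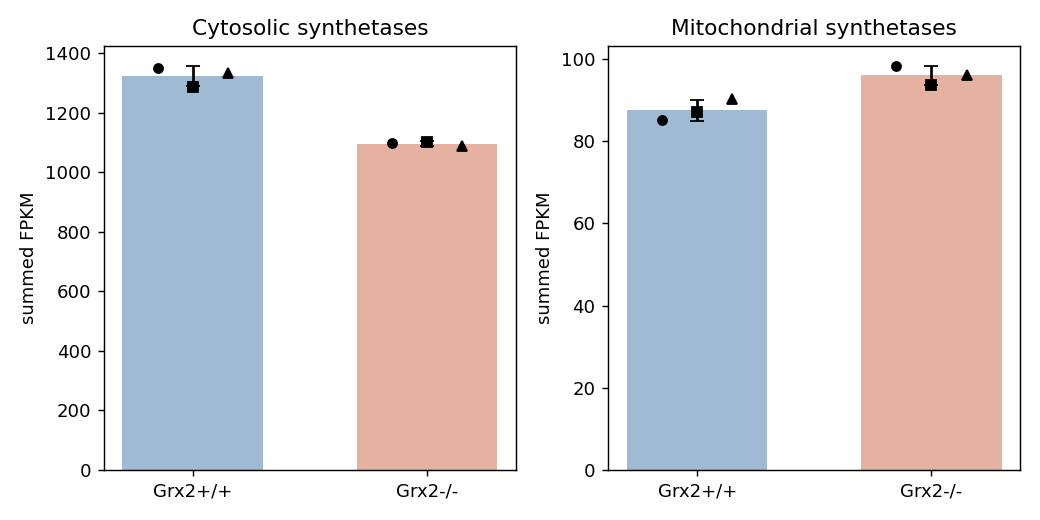
Summed FPKM of the cytosolic (left) and mitochondrial (right) synthetases, with bars for the mean of 3 libraries, error bars for the SD and points for the libraries. The cytosolic sums run from 1286 to 1351 in wild type and from 1088 to 1102 in knockout.

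Among cytosolic enzymes the largest fall was that of Gars, which charges glycine tRNA in both compartments. In the wild type its level was 199.7, 178 and 191 FPKM, and in the knockout 118, 127 and 124 FPKM. The groups did not overlap, and the mean fell by 35.2% (log2 fold change -0.62 ± 0.048 SE, adjusted p = 1.15e-05). Sars, the serine enzyme, was at 96.7, 86.9 and 93.3 FPKM in wild type and at 68.9, 68.5 and 67 FPKM in knockout. The same enzyme also charges the selenocysteine tRNA with serine. Its log2 fold change was -0.43 ± 0.043 (adjusted p = 4.7e-05).

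Nars was at 202, 188 and 200.2 FPKM in wild type and at 149.5, 148 and 142 FPKM in knockout. Asparagine, its substrate, is made by Asns, a classical ATF4 target. The log2 fold change of Nars was -0.42 ± 0.039 (adjusted p = 3.1e-05). Cars, the cysteine enzyme, was at 32.6, 30.3 and 31.9 FPKM in wild type and 22.5, 24.1 and 23.8 FPKM in knockout. Aars, the alanine enzyme, was at 86.7, 81.2 and 84.6 FPKM in wild type and 63.9, 62.7 and 64.9 FPKM in knockout. Their log2 fold changes were -0.42 ± 0.043 and -0.39 ± 0.035, and neither gene's groups overlapped. In each of these 5 genes wild type replicate 2 was the lowest wild type library, yet above all knockout libraries. Without that library the log2 fold change of Gars was -0.66 (adjusted p = 1.49e-05).

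A second tier of cytosolic genes fell by less. Lars, Tars, Iars and Wars, the enzymes for leucine, threonine, isoleucine and tryptophan, had log2 fold changes of -0.30, -0.30, -0.28 and -0.28, with SE of 0.035 to 0.041. Tars, which has the motif just before its start, went from 76.8 ± 3.64 FPKM (SD, n = 3) in wild type to 62.2 ± 1.37 FPKM in knockout. Wars is also known as an interferon-induced gene. It was at 39.5, 37.5 and 39.7 FPKM in wild type and 31.4, 32 and 32 FPKM in knockout, so the knockout libraries were the lower ones. In the same libraries 14 of 15 tested interferon-stimulated genes rose and 1 fell, with the sum of the list at 57.6 to 92.7 FPKM in wild type and 166 to 169 FPKM in knockout.

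Smaller falls were seen for Eprs (-0.19 ± 0.029), which joins the glutamate and proline enzymes in 1 protein, and for Qars (-0.18), Rars (-0.17), Kars (-0.12) and Yars (-0.11), the enzymes for glutamine, arginine, lysine and tyrosine. Eprs was at 59.2, 59.6 and 59.3 FPKM in wild type and at 52.5, 51.5 and 52.1 FPKM in knockout. Its mean fell by 12.3%, and the groups did not overlap. Yars, which holds the motif, fell least, by 7.5%. Its call was lost without wild type replicate 1 (-0.081, adjusted p = 0.102) or 3 (adjusted p = 0.0605) and without knockout replicate 1 (adjusted p = 0.0612) or 3 (adjusted p = 0.0629). The call of Kars was lost without knockout replicate 3 (-0.11, adjusted p = 0.0589). Over both compartments the groups of 29 of 36 tested synthetases (80.6%) did not overlap, against 73.1% of all tested genes.

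Not all cytosolic genes followed. Hars, the histidine enzyme, rose from 45.4, 45.7 and 46.4 FPKM to 54.2, 56.1 and 52.8 FPKM (0.24 ± 0.034, adjusted p = 0.000364). Tarsl2 rose from 2.66, 2.93 and 2.42 FPKM to 4.47, 3.94 and 4.27 FPKM. Its mean was 58.2% higher (0.51 ± 0.07, adjusted p = 0.000317), while Tars, for the same amino acid, fell. Hars and Tarsl2 kept their calls under both other scalings.

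Mars1, the methionine enzyme, was at 22.8, 21.5 and 22.8 FPKM in wild type and 25.9, 26 and 25.6 FPKM in knockout (0.20 ± 0.037), and Farsb, the beta subunit of the phenylalanine enzyme, rose from 12.5 to 14.2 FPKM (0.17 ± 0.038). Both lost their calls with median-of-ratios scaling (0.10, adjusted p = 0.0608, and 0.078, adjusted p = 0.131). Farsa, the alpha subunit that pairs with Farsb, had overlapping groups and a log2 fold change of -0.01 (95% interval -0.14 to 0.12). Vars, for valine, was at 0.02 (-0.07 to 0.11) and Dars, for aspartate, at 0.07 (-0.03 to 0.17). Knockout replicate 1 was highest for Dars, at 56.8 FPKM against 50.8 and 51.7 FPKM.

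**Figure D3:**
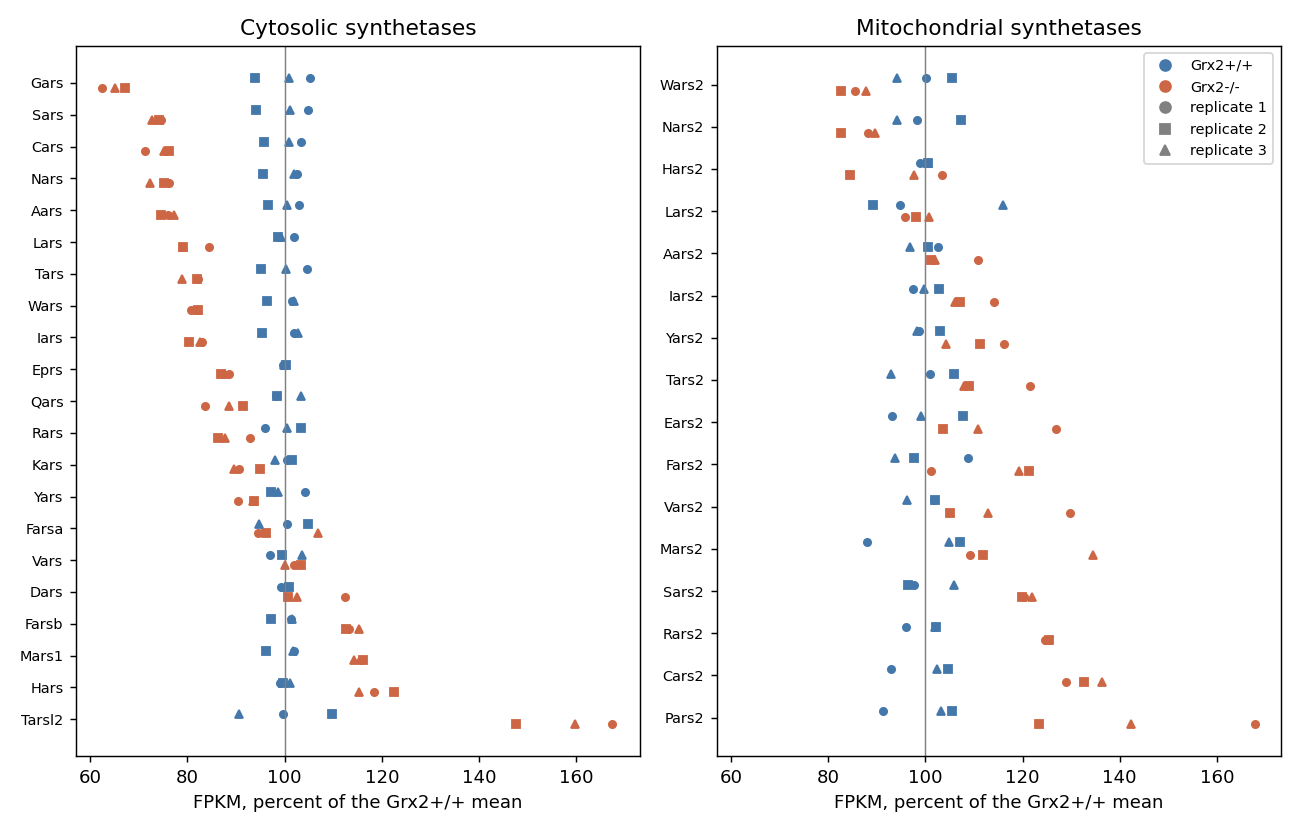
FPKM of the synthetases reported, in each library, as a percent of its wild type mean, cytosolic on the left and mitochondrial on the right, with wild type in blue, knockout in red and a marker shape per replicate. Gars, Sars, Cars, Nars and Aars show knockout points well below 100, and Tarsl2, Pars2 and Cars2 well above.

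Membership of the multi-synthetase complex did not divide the genes that fell from those that did not. Of 8 members of the complex 6 fell, 1 rose (Mars1) and 1 did not pass (Dars), with a median of -0.17. Of the 13 cytosolic synthetases outside it 8 fell, 3 rose and 2 did not pass, with a median of -0.28, and the 5 largest falls were among them. By catalytic fold, 7 of 9 class I and 6 of 11 class II cytosolic genes fell, Eprs belonging to both classes. Of the 3 scaffold proteins, Aimp1 was at 46.9, 44.8 and 47 FPKM in wild type and 41.8, 43.7 and 43.9 FPKM in knockout (-0.10 ± 0.036, adjusted p = 0.042). The count of scaffold genes that fell became 0 when any single library other than wild type replicate 2 was left out, and 2 with either other scaling. Aimp2 (0.04) and Eef1e1 (-0.08) did not pass.

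**Figure D4:**
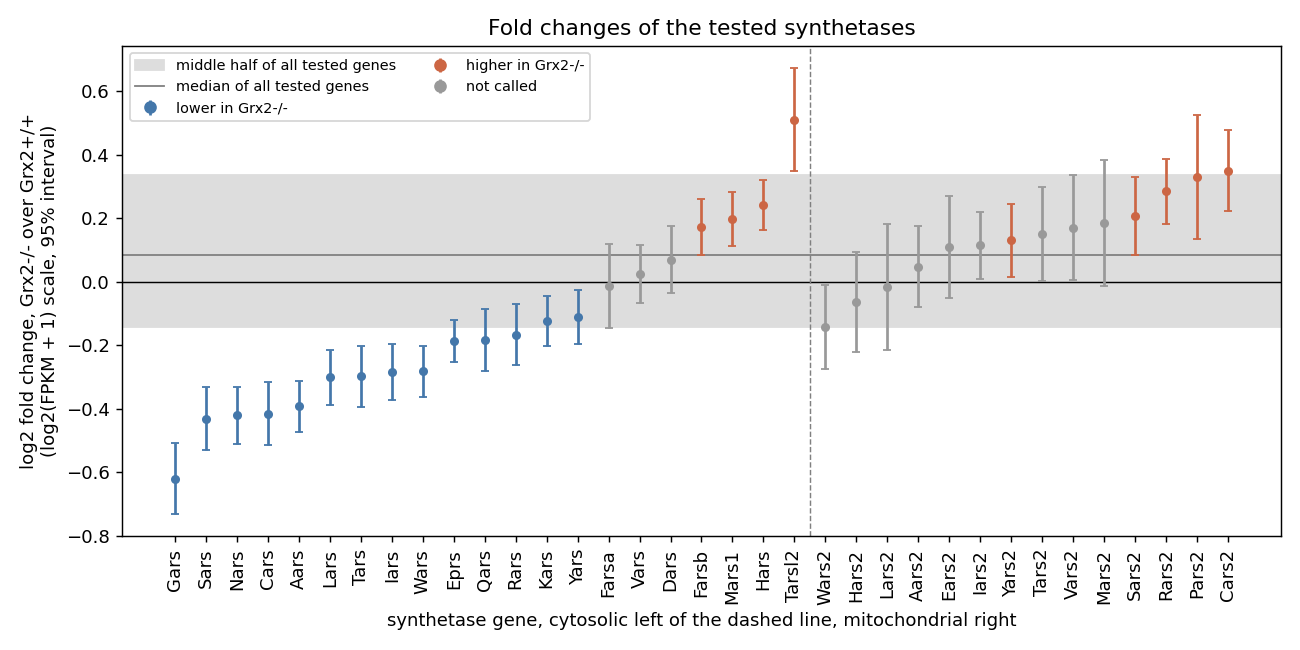
Log2 fold change of the tested synthetases reported, each with its 95% interval, blue where it fell, red where it rose and grey where it did not pass. The grey band is the middle 50% of all tested genes and the grey line their median, 0.085; 9 cytosolic genes from Gars to Wars lie at -0.28 or below.

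Mitochondrial synthetases rose or did not pass the test in the main fit, where none fell. Cars2, for cysteine, was at 4.82, 5.43 and 5.32 FPKM in wild type and at 6.69, 6.88 and 7.08 FPKM in knockout (0.35 ± 0.055, adjusted p = 0.000682). Rars2, for arginine, went from 6.28, 6.69 and 6.67 to 8.16, 8.22 and 8.19 FPKM (0.28 ± 0.044, adjusted p = 0.000651). The groups of both were well apart, with a rise of 32.6% for Cars2 and 25.1% for Rars2. Pars2, for proline, was at 1.28, 1.48 and 1.45 FPKM in wild type and 2.36, 1.74 and 2 FPKM in knockout, highest in knockout replicate 1. Its mean was 44.6% higher. The log2 fold change was 0.33 ± 0.084, and 0.25 without that library (adjusted p = 0.0177). Cars2, Rars2 and Pars2 passed under every alternative that tested them, whereas the calls of Sars2 (0.21) and Yars2 (0.13), for serine and tyrosine, were lost with median-of-ratios scaling and quantile normalization.

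Single libraries decided several of these smaller calls. That of Yars2, at an adjusted p of 0.0472, was lost without any library other than knockout replicate 3, with adjusted p from 0.0516 to 0.135. Tars2, the threonine enzyme, did not pass with all libraries (0.15, adjusted p = 0.0653) but did without wild type replicate 2 (0.19, adjusted p = 0.0462). Vars2, for valine, did not pass (0.17, adjusted p = 0.0632) but did without knockout replicate 2 (0.23, adjusted p = 0.0248).

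The remaining mitochondrial genes that did not pass ran from Wars2 (-0.14, 95% interval -0.27 to -0.01) to Mars2 (0.18, -0.01 to 0.38, and 0.27 with adjusted p = 0.0364 without the 2 most distant libraries), with Hars2 (-0.07), Lars2 (-0.02), Aars2 (0.05), Ears2 (0.11) and Iars2 (0.11) between. Iars2, for isoleucine, passed as higher with voom (adjusted p = 0.0347) and with a filter of 5 FPKM (adjusted p = 0.0499). Wars2, for tryptophan, was at 1.76, 1.86 and 1.66 FPKM in wild type and 1.5, 1.45 and 1.54 FPKM in knockout. It was lower in every knockout library, and it passed as lower with median-of-ratios scaling (-0.20, adjusted p = 0.0115) and with quantile normalization, voom or limma without trend. Lars2 was widest in wild type, where replicate 3 was at 23.5 FPKM against 19.2 and 18.1 FPKM. Fars2 and Nars2 were below the filter, with means of 0.806 and 0.67 FPKM in wild type and 0.918 and 0.581 FPKM in knockout, and with no filter they did not pass (adjusted p = 0.276 and 0.138).

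The balance between compartments was also read as the FPKM ratio of the cytosolic to the mitochondrial gene for the same amino acid, which scaling a library by a factor leaves as it is. Of 16 pairs, counting Eprs against both Ears2 and Pars2, 15 had a lower mean ratio in knockout and 1, Hars over Hars2, a higher one. The groups did not overlap for 9 of the 15 lower pairs, nor for Hars over Hars2, and overlapped for the rest. In all, 10 of 16 pairs did not overlap, beside 73.1% of all tested genes, a share of single genes and not of ratios. Sars over Sars2 was 34.7, 31.6 and 30.9 in wild type and 20.1, 20 and 19.3 in knockout. Cars over Cars2 went from 6.77, 5.57 and 5.99 to 3.36, 3.5 and 3.36. Both pairs combine a cytosolic gene that fell with a mitochondrial gene that was higher, and their groups are far apart. Wars over Wars2, where both genes were lower, was 22.4, 20.2 and 23.9 in wild type and 20.9, 22 and 20.7 in knockout, with overlapping groups. These ratios are a description, since 3 against 3 libraries allow no exact p below 0.1.

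Hars and Hars2 overlap each other in the RefSeq table of GRCm38.p6. With no strand setting stated, reads from the shared stretch cannot be told apart. In the same table Mars1 overlaps Ddit3, the stress factor CHOP, which was at 31.5, 25.4 and 28.8 FPKM in wild type and 16.1, 7.59 and 10.8 FPKM in knockout. In all, 18 of the 38 synthetases overlap another annotated gene there, and their values carry this uncertainty.

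Genes that work beside the synthetases moved in several ways. Of 20 tested genes in the list of ATF4, its partners and its known targets, 18 fell (90%) and 0 rose, with a median of -0.56. Of all tested genes 24.6% were lower and 42.7% higher. The falls in the list numbered 15 to 17 with 1 library left out, and 1 gene rose without knockout replicate 2. Atf4 itself was at 214, 189 and 211 FPKM in wild type and 157, 129 and 138 FPKM in knockout (-0.53 ± 0.077). Psph (-0.90), of serine synthesis, and Vldlr (-0.83) were among the 4 with the smallest p, after Nupr1 (-2.07) and Ddit4 (-1.80), both stress-induced genes. Of 21 tested amino acid transporters 13 fell, 7 rose and 1 did not pass, with a median of -0.35. Slc38a4, a neutral amino acid transporter, went from 28.4 ± 1.77 to 4.77 ± 0.652 FPKM, and Slc7a7 from 5.33 to 1.85 FPKM. Slc43a2 (1.65) and Slc7a8 (1.43), also carriers of neutral amino acids, rose.

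On the mitochondrial side, the 3 subunits of the amidotransferase that converts glutamate on the glutamine tRNA rose: Gatb from 2.16 to 4.27 FPKM (0.74 ± 0.088), Qrsl1 from 3.46 to 4.84 FPKM (0.39) and Gatc from 9.41 to 10.8 FPKM (0.18). This enzyme stands in for a separate mitochondrial glutaminyl-tRNA synthetase. Mtfmt, which formylates the initiator methionine tRNA, fell (-0.34 ± 0.087). The count of these 4 partners that rose was 2 rather than 3 without wild type replicate 2 or 3, without knockout replicate 3 and with either other scaling. Of 9 mitochondrial translation factors only Gfm1 passed, as higher (0.33), with all libraries, while Tufm, the factor that carries charged tRNA to the ribosome, was at -0.01 (adjusted p = 0.862).

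In the cytosol, Eef1a1, which delivers charged tRNA to the ribosome, was at 5347 FPKM in wild type and 4539 FPKM in knockout (-0.24 ± 0.037). Of 7 elongation factors 4 fell, Eef1a1, Eef1b2 (-0.37), Eef2 (-0.23) and Eef1g, and 1 rose, Eif5a. The count of rises became 0 without wild type replicate 2 or 3, without knockout replicate 2 or 3, with median-of-ratios scaling and with limma without trend. Of 5 editing factors, which clear mischarged tRNA, 2 rose and 0 fell: Aarsd1, an alanine tRNA editing protein, at 8.12, 8.46 and 7.6 FPKM in wild type and 14, 14.5 and 14.1 FPKM in knockout (0.75 ± 0.048), and Dtd1 (0.40). Of 23 tRNA processing and export genes 11 rose and 4 fell, but 7 rose and 7 fell with median-of-ratios scaling, in both cases near the shares of all tested genes. Xpot, the exporter of tRNA from the nucleus, fell (-0.42 ± 0.044) and Tsen34, a tRNA splicing subunit, rose (0.40). Of 23 tested RNA polymerase III genes 6 rose (26.1%) and 10 fell (43.5%), against 42.7% and 24.6% of all tested genes. The falls numbered 7 to 10 with 1 library left out and 13 with either other scaling. Maf1, the repressor of that polymerase, rose (0.46), and Polr3d fell (-0.53).

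**Figure D5:**
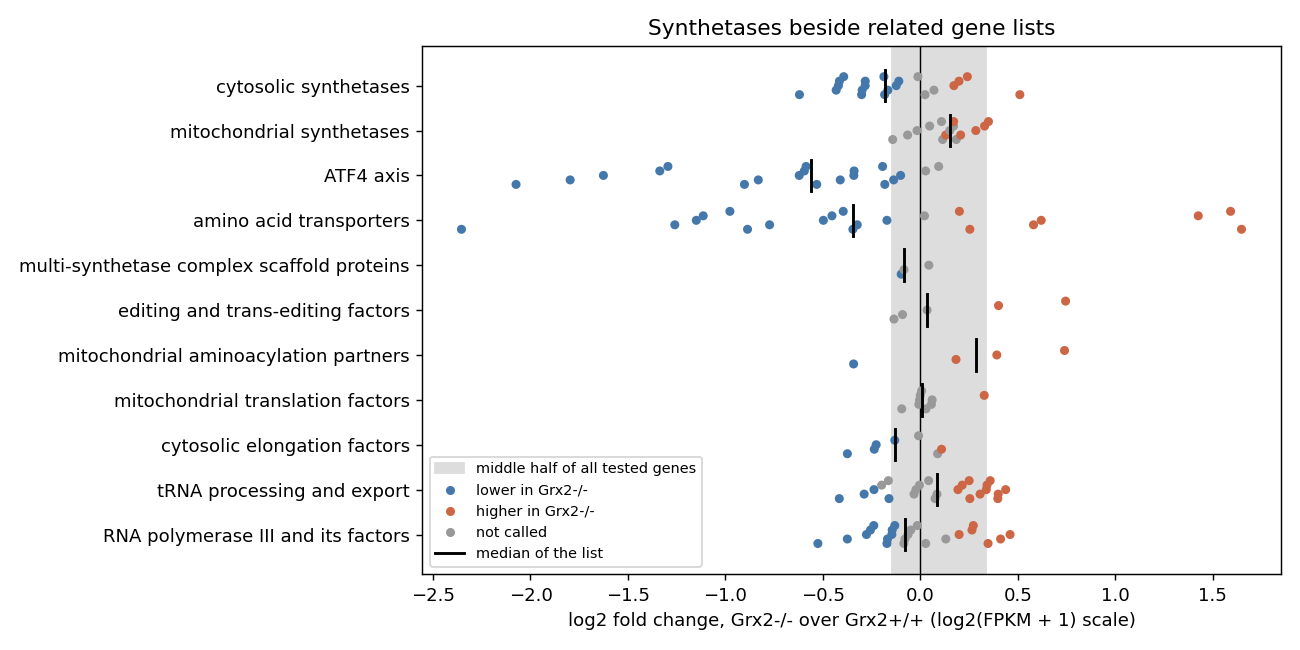
Log2 fold changes of the synthetases and of 9 related gene lists, 1 point per tested gene (blue fell, red rose, grey did not pass), with a black bar at each list's median and a grey band for the middle 50% of all tested genes. The medians are -0.18 for cytosolic synthetases, 0.15 for mitochondrial synthetases, -0.56 for the ATF4 list and -0.35 for transporters.

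Markers of other cells and states differed between the same groups. The 10 neutrophil markers summed to 938 to 2720 FPKM in wild type and 4.41 to 6.79 FPKM in knockout, where Retnlg was at 0 in every library, and all 9 tested fell. The 10 endothelial markers summed to 25.8 to 31 FPKM in wild type and 5.25 to 6.06 FPKM in knockout, with 6 of 7 tested lower and Cldn5 at 0 in knockout. The 12 macrophage markers summed to 1603 to 1721 FPKM in wild type and 2615 to 3518 FPKM in knockout, and 11 rose. Of the 13 stromal markers 7 fell and 5 rose, and their sum was 7397 to 8414 FPKM in wild type and 4871 to 5607 FPKM in knockout. Osteoblast markers fell in 7 of 7 tested genes, their sum going from 1474 to 1630 FPKM in wild type to 627 to 662 FPKM in knockout. Cell cycle genes rose in 17 of 20. The part of any of these differences in the synthetase results was not tested.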

How the data were processed

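The authors deposited FPKM values for 22984 gene symbols in 6 libraries. The submitters' processing notes name the build GRCm39 and the tools HTSeq, HISAT2 and R 3.2.0, without roles. The sources used here give no annotation, filter or strand setting. TRIzol extraction and a VAHTS library kit are named, per the labels' protocols.

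FPKM was used as deposited. Genes with a mean of at least 1 FPKM (11083) were fitted as log2(FPKM + 1) with limma 3.58.1 (trend) in R 4.3.3, knockout against wild type, two-sided, Benjamini-Hochberg adjustment, threshold 0.05; fold changes on this scale understate changes of low genes. Errors are SD over 3 libraries or SE of the fit. The fit was also run on simulated reads whose spread came from the wild type libraries only, which checks the procedure and not the calls above. Whole reads were worked back for 22983 genes (tolerance 0.01 reads) and used for depth and voom. Within groups no library was a copy of another (chi-square per gene from 4.2 to 28). Every member enters the counts, sums and medians, but 1 is not reported here by itself. Of related lists, the named genes were those with the smallest p, all scaffold and partner genes, and some chosen after their values were seen (Atf4, Ddit3, Tufm, Eif5a, Cldn5). Members, lists, motifs and alternatives were chosen with earlier results of these data known. Promoters are from RefSeq (GRCm38.p6), another build than the authors'.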

Additional observations from a re-analysis of the deposited data

How the results depend on the processing

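Of 16 alternatives, those that changed the counts most were the scalings. Relative to the values as deposited, quantile normalization shifted the median of all tested genes by -0.11 and median-of-ratios scaling by -0.087. With either, 2 cytosolic synthetases rose in place of 4 and 3 mitochondrial ones in place of 6. Mitochondrial synthetases that fell numbered 1 with median-of-ratios scaling, voom or limma without trend and 2 with quantile normalization, against 0 (Wars2, joined by Hars2 with quantile normalization). Quantile normalization also added Farsa and Vars to the cytosolic falls, giving 16. With 1 library left out, cytosolic falls ranged from 12 to 14, cytosolic rises stayed at 4, mitochondrial rises ranged from 4 to 6 and mitochondrial falls stayed at 0. Of the 14 cytosolic genes that fell, 12 kept the call under all 16 alternatives, the exceptions being Kars and Yars.

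Signs turned, in genes that had not passed, with median-of-ratios scaling for Aars2 (-0.027), Dars (-0.030) and Vars (-0.072), and with quantile normalization for Aars2 (-0.061), Dars (-0.046), Iars2 (-0.0072) and Vars (-0.11, adjusted p = 0.0438). With 1 library left out, values ranged from -0.065 to 0.021 for Farsa, from -0.12 to 0.0064 for Hars2, above 0 only without knockout replicate 2, and from -0.091 to 0.089 for Lars2, above 0 only without wild type replicate 3. Farsa was above 0 without wild type replicate 2 or knockout replicate 1 or 2, and at 0.053 without the 2 most distant libraries together. The cause was not tested.

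With the replicate number as a block, the counts were 14 lower and 4 higher for cytosolic and 0 lower and 6 higher for mitochondrial synthetases, but Yars2 lost its call (adjusted p = 0.0518), Mars2 gained one (adjusted p = 0.0465) and Aimp1 no longer passed. Same-numbered libraries deviated together with correlations of 0.107, 0.124 and 0.0199, and differently numbered ones with -0.129 to 0.0598. These values do not settle whether the numbers pair the libraries, and the main fit did not pair them. The least covered synthetase had 162 reads in a library, and the effect of depth on the calls was not tested.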

Other observations

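Besides the ATF4 core, 2 motifs were searched in the synthetase promoters. TGACNNNGC, the core of the antioxidant element, was in 6 of 28 windows (21.4%) against 14% of all genes and 17% of tested genes, in Aars, Iars, Mars1, Aars2, Lars2 and Nars2. CACGTG, the E-box read by MYC and related factors, was in 5 of 28 (17.9%) against 8.09% of all genes and 12.1% of tested genes, in Aars, Iars, Tars, Farsb and Ears2. It was in 4 of 14 cytosolic synthetases (28.6%), in 3 of the 9 that fell (33.3%) and 1 of the 5 that did not (20%), and in 1 of 14 mitochondrial ones (7.14%). Aars, Iars and Tars held the E-box and the ATF4 core together, in Tars at 20 to 25 bases from the start, and in Aars and Iars before it. Of tested genes with the E-box, 23.9% were lower and 43.1% higher in the knockout, near the shares of all tested genes.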
